A study of Mus musculus with 9 samples.

Results

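The chemokine and chemokine receptor genes were followed in the livers of C57BL/6 mice, a common inbred laboratory strain, across a normal group, a group with fatty liver disease induced by diet and a group given sarsasapogenin on that diet. Members were all genes in either of the authors' deposited tables whose mouse symbol is that of a numbered chemokine ligand of the CC, CXC, CX3C or XC families, a receptor for them or an atypical chemokine receptor. The choice used the symbols alone and no measured value, but it was made with earlier results of these data known. It gave 56 of the 16521 genes in the tables, of which 34 encode ligands, 18 encode receptors and 4 encode atypical receptors.

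Chemokines are small secreted proteins that bind receptors coupled to inhibitory G proteins and draw leukocytes along a gradient. Which cell is drawn depends on the receptor it carries: CCR2 and CX3CR1 mark monocytes, CXCR2 marks neutrophils, and CXCR3 and CXCR6 mark effector T cells and natural killer (NK) cells. In an injured liver, Kupffer cells, stellate cells, endothelium and hepatocytes make ligands, and the arriving leukocytes bring the receptors. Atypical receptors bind chemokines without coupling to G proteins and take them out of circulation.

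The normal group of 3 liver samples received saline, per the labels. Titles call the normal samples wt (wild type), and the titles of the other groups name no genotype. The model group of 3 was fed a diet deficient in methionine and choline (MCD), which causes steatosis and hepatitis in rodents and also weight loss. The third group of 3 had the MCD diet and a high dose of SAR, the steroidal sapogenin sarsasapogenin. Its amount, the length of the diet and the age and sex of the mice are not stated in the labels. MCD feeding is shared by the model and SAR groups, so it is the normal group alone that lacks it. Mice were assigned to the groups at random, per the series' design text, but no label says that the 3 samples of a group come from separate mice. The p-values therefore speak only of how these samples vary, and that variation could be technical.

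Group means are what the authors deposited, and the reads of each library were recovered from them. A normalised read is a library's read number for a gene divided by a size factor on a scale common to all 9 libraries, and levels below are in this unit, which is not corrected for gene length. Libraries of a group are called a, b and c. The recovered reads per library ran from 6051681 to 9607105, but they leave out the most abundant genes and cover 43.2% of the summed group means in the normal group, 64.8% in the model and 52% with SAR. Log2 fold changes were fitted with limma on the 2 groups compared, on their own scale, as log2(value + 1), which understates the change of low genes. They are given with a standard error (SE) and a p-value adjusted over all genes tested. A gene is said to have risen or fallen only where that p was under 0.05.

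The liver identity of the samples was checked with 6 hepatocyte genes. In the authors' deposited tables, the group mean of albumin, Alb, stood at 842230 for normal livers and 738902 for the model of the same table. It was 677634 in the model and 1211012 with SAR in the other table. By the authors' deposited tests 4 of these 6 genes were lower in the model, and all 6 were higher with SAR than in the model. The deposited mean of Cyp2e1, a drug-metabolising enzyme, fell from 190336 to 54738 between normal and model livers (adjusted p = 0.0021), and in the other table it rose from 49969 without SAR to 186816 with it (adjusted p = 0.018). The deposited mean of Hnf4a, the hepatocyte transcription factor, was 13496 and 5290 (adjusted p = 2e-06), then 4853 and 11273 (adjusted p = 1.14e-05). In these tables Apoa1 and Serpina1c passed in the same directions, while Alb (adjusted p = 0.862) and Ttr (0.558) did not pass between model and normal. The part of hepatocyte RNA in the chemokine values was not tested. Normal library c stood apart. Its 10 neutrophil markers summed to 7890 normalised reads, against 99.9 and 217 in normal libraries a and b. Its 6 B and plasma cell markers summed to 745, against 140 and 153, and most of this was Jchain, at 661 against 90.3 and 97.2. Model library c had a sum of 1970 over 5 cholangiocyte markers, while model libraries a and b had 9409 and 10719. The libraries that correlated least with the others of their group were normal c, model c and SAR a.

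Chemokine genes stood higher in the MCD model than in the normal livers, among ligands and receptors alike. In the authors' deposited tables, 26 of the 56 members had a group mean of at least 10 in the normal group, 38 in the model and 31 with SAR. Those that reached 10 in the model but not in the normal group were Ackr1, Ccl2, Ccl3, Ccl4, Ccl7, Ccl19, Ccl22, Ccr7, Cx3cl1, Cxcl2, Cxcl5 and Xcr1. Those at 10 or more in the model but under 10 with SAR were Ackr1, Ackr3, Ccl7, Ccl19, Ccl22, Ccr9 and Cxcl5. The other 18 members were under 10 in every group.

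In the model against the normal group, 36 members were abundant enough to test. Of these 22 rose, 2 fell and 12 did not pass, while 20.2% of the 12491 genes tested rose and 19% fell. The median log2 fold change of the tested members was 2.03, against 0.03 for all genes tested. Among ligands 13 of 22 rose and 2 fell, among receptors 9 of 11 rose, and none of 3 atypical receptors passed in either direction in limma. None of these 3 had an unadjusted p under 0.05 either, whereas 25.9% of all genes tested were higher and 24.4% lower at that p. The model libraries lay wholly above the normal libraries for 23 tested members and wholly below for 2, against 27.3% and 26.5% of all genes tested. A pseudocount of 4 in place of 1 left the counts at 22 and 2 but gave smaller log2 fold changes for genes near 0 in the normal group: 3.82 for Ccl2, 3.57 for Ccl3, 3.31 for Ccl4, 2.54 for Ccl22, 3.03 for Ccr7, 3.22 for Cxcl2 and 2.91 for Cxcl5.

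In SAR livers against the model, 37 members were tested, of which 18 fell, 1 rose and 18 did not pass. Across 12462 genes tested, 16.2% fell and 13.2% rose. The members' median log2 fold change was −1.3, against 0.01 for all genes tested. Among ligands 9 of 23 fell and 1 rose, and among receptors 9 of 11 fell. SAR libraries lay wholly below the model for 23 tested members and wholly above for 1, against 24% and 21% of all genes tested. Without model library a, as without model library b, 9 members fell, and without SAR library b 11 did. Model samples enter this comparison and the one before it, so the 2 are not independent of each other.

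In SAR livers against the normal group, 28 members were tested, of which 3 rose, none fell and 25 did not pass. The 3 were Cxcl2, Ccl5 and Cxcl9, and across 11537 genes tested 1.73% rose and 1.8% fell. At an unadjusted p under 0.05, limma had 12 members higher and 2 lower, against 12.7% and 13.5% of all genes tested. The median log2 fold change was 0.80, against 0 for all genes tested. Without normal library c, 7 members rose and 2 fell, and without any other library of this comparison none rose.

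**Figure D1:**
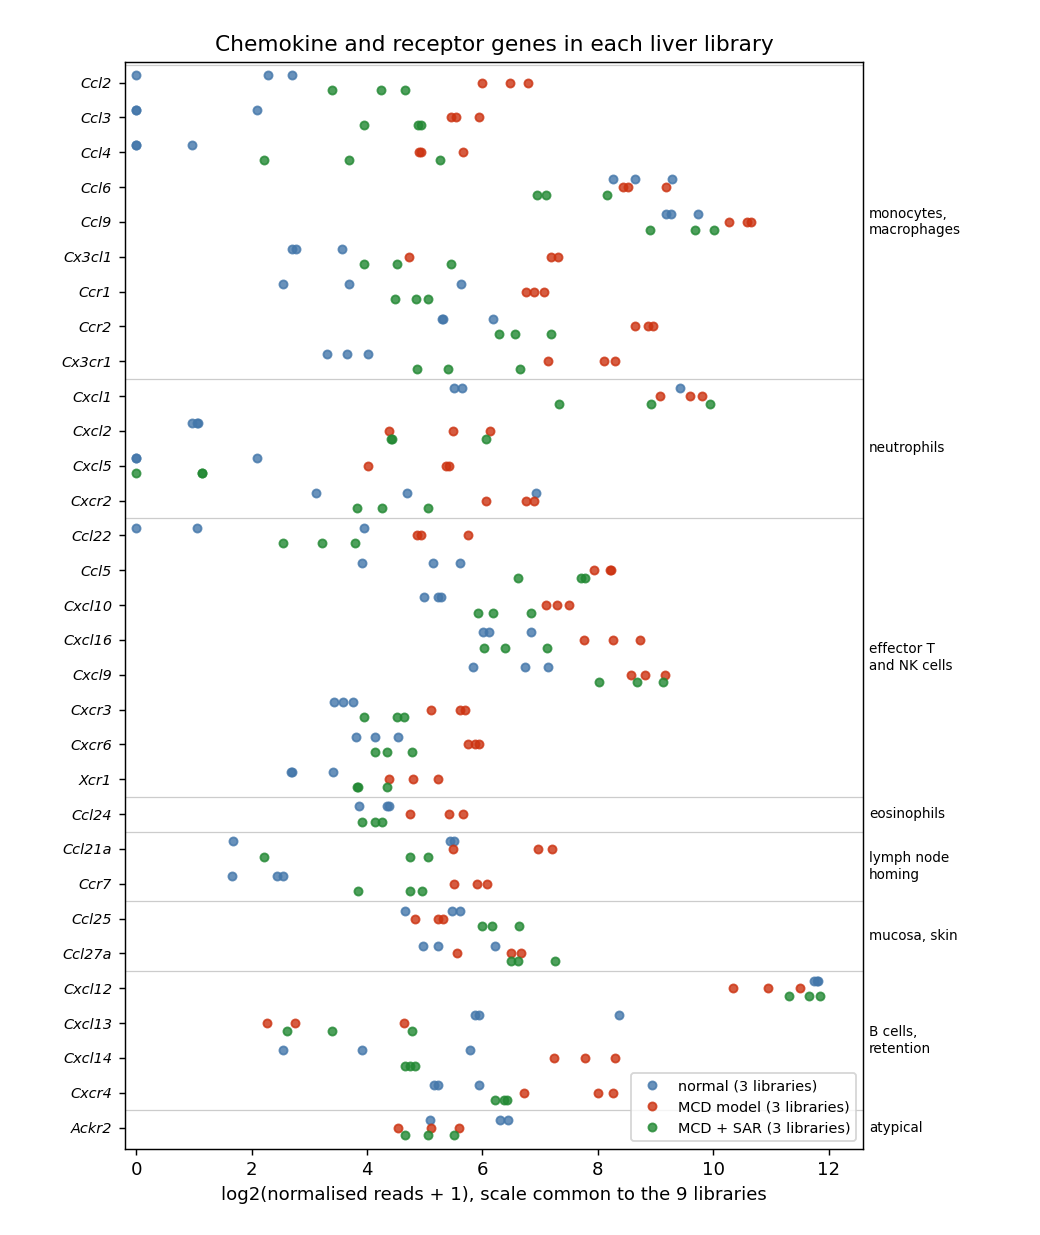
Level of 31 chemokine, receptor and atypical receptor genes in each library, as log2(normalised reads + 1) on the horizontal axis, with 1 point a library and the cells attracted named at the right. The red model points lie to the right of the blue normal points for most genes attracting monocytes and T cells, and Cxcl12 and Cxcl13 show the opposite order.

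**Figure D2:**
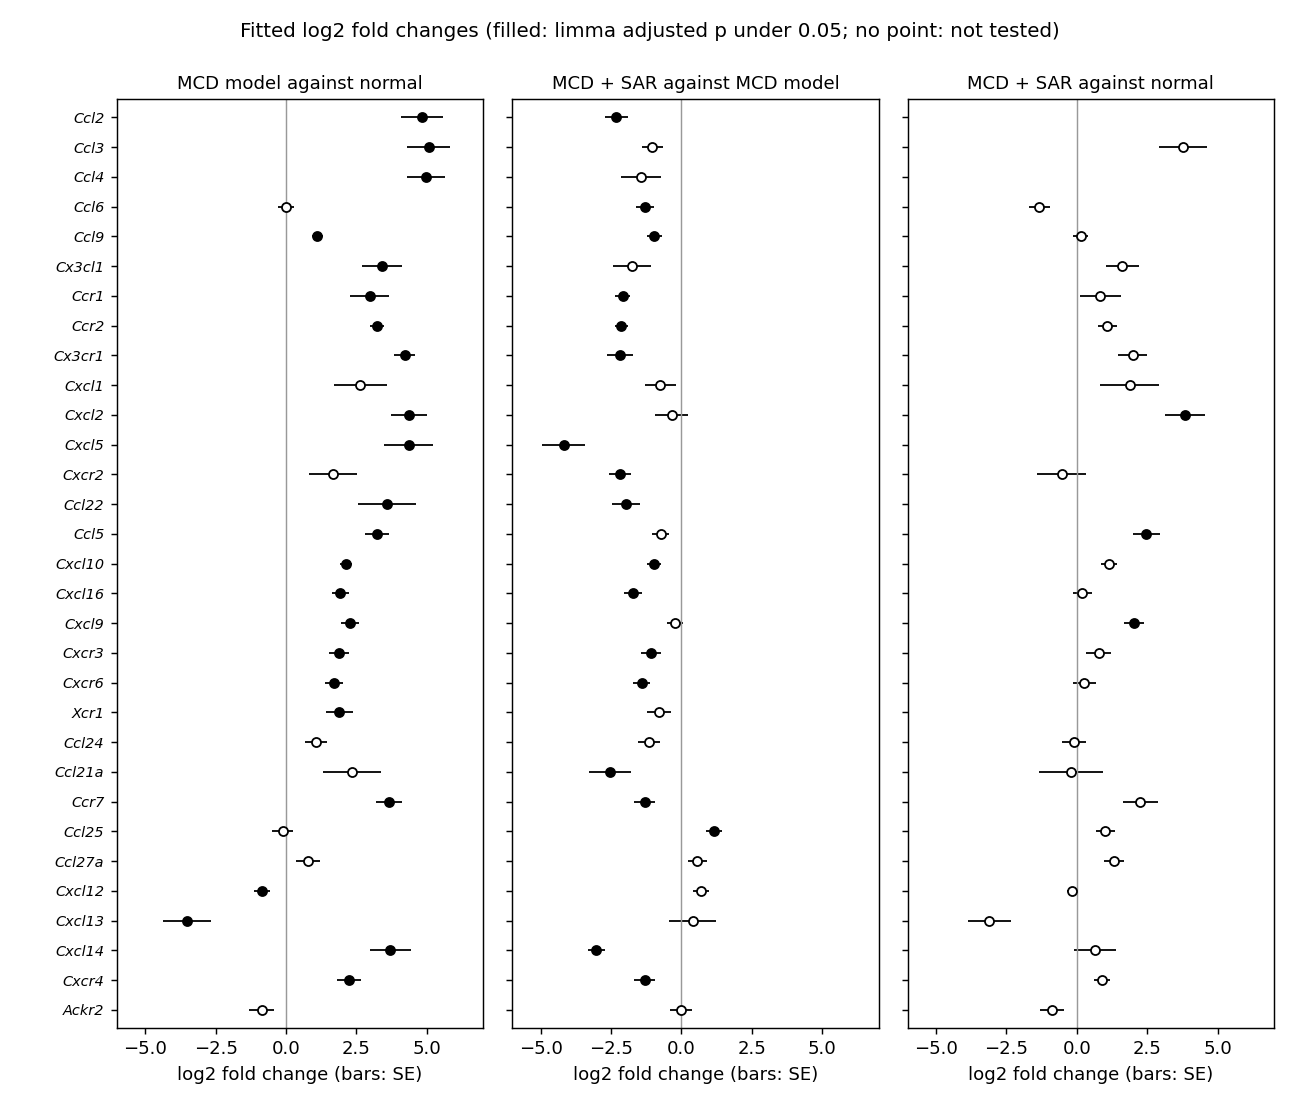
Fitted log2 fold changes of the same 31 genes with their SE in 3 comparisons, filled where the limma adjusted p was under 0.05. Filled points lie mostly right of 0 in the model against normal, mostly left of 0 in SAR against model, and at Cxcl2, Ccl5 and Cxcl9 in SAR against normal.

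Genes that act on monocytes and macrophages were mostly higher in the model. Of 10 tested in the model, 9 rose, against 20.2% of all genes tested. Of 11 tested in SAR livers against the model, 7 fell, against 16.2% of all genes tested. None of 8 passed in SAR livers against the normal group. There limma had 4 higher and 1 lower at an unadjusted p under 0.05, against 12.7% and 13.5% of all genes tested. Ccl2 encodes the main ligand of CCR2, which draws monocytes out of bone marrow. Its levels were 3.84, 0 and 5.52 normalised reads in normal libraries a, b and c, 87.6, 110 and 62.9 in the model and 9.55, 24.2 and 18.0 with SAR. The 3 groups did not overlap, and the SAR libraries lay between the others. Ccl2 rose by 4.83 on the log2 scale in the model (SE 0.76, adjusted p = 0.0039) and fell by 2.31 with SAR against the model (SE 0.40, adjusted p = 0.00483). Without normal library b, the only normal library with no Ccl2 read, its log2 fold change in the model was 3.96. In SAR livers against the normal group it was too low to test.

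Ccl3 and Ccl4 encode macrophage inflammatory proteins, and CCL3 is a ligand of CCR1. Ccl3 stood at 0, 3.24 and 0 normalised reads in the normal libraries a, b and c, at 60.3, 45.7 and 43.0 in the model and at 28.6, 14.5 and 29.5 with SAR. Ccl4 stood at 0.961, 0 and 0 in the normal libraries, at 49.5, 29.7 and 28.7 in the model and at 11.9, 3.63 and 37.2 with SAR. For either gene the normal group was nearly empty, and Ccl4 in SAR library c was as high as in the model. Summed reads gave a model to normal ratio of 47.9 for Ccl3 (exact 95% interval 16.1 to 234) and of 104 for Ccl4 (18.4 to 4152), which cover counting error only. Fitted on the log2 scale, Ccl3 rose by 5.06 (SE 0.75, adjusted p = 0.00328) and Ccl4 by 4.96 (SE 0.68, adjusted p = 0.00259). Without normal library b the value of Ccl3 was 5.80. With SAR against the model, neither passed: the log2 fold change was −1.04 for Ccl3 (adjusted p = 0.0621) and −1.43 for Ccl4 (adjusted p = 0.156), and Ccl4 fell without SAR library c (−2.20, adjusted p = 0.0414). SAR against normal gave a ratio of summed reads of 23.1 for Ccl3 (7.54 to 115) and of 49.4 for Ccl4 (8.39 to 1997). The fit for Ccl3 did not pass there (log2 fold change 3.76, adjusted p = 0.0521) and did without normal library c (3.44, adjusted p = 0.0317).

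Ccl6 and Ccl9 are rodent ligands of CCR1 that myeloid cells make. Levels of Ccl9 were 619, 581 and 855 normalised reads in the normal libraries, 1244, 1606 and 1537 in the model and 480, 1033 and 818 with SAR. Ccl9 rose by 1.11 in the model (SE 0.19, adjusted p = 0.00509) and fell by 0.96 with SAR (SE 0.27, adjusted p = 0.0278). Ccl6 behaved otherwise. It stood at 307, 401 and 620 in the normal libraries, at 368, 346 and 581 in the model, and at 122, 136 and 284 with SAR, below every other library. Its log2 fold change was −0.01 in the model (SE 0.29, adjusted p = 0.977) and it fell by 1.3 with SAR (SE 0.33, adjusted p = 0.019). Against the normal group its value with SAR was −1.33, which did not pass (adjusted p = 0.0728). The SAR call of Ccl9 was lost without a trended variance (adjusted p = 0.0642) and without model library a (adjusted p = 0.0502), model b (0.0984) or SAR c (0.0622), and that of Ccl6 without SAR a (0.0545) or SAR b (0.0797).

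Cx3cl1 encodes fractalkine, a chemokine tethered to epithelium and endothelium, and Cx3cr1 encodes its receptor on patrolling monocytes and tissue macrophages. Cx3cl1 stood at 5.77, 10.8 and 5.52 normalised reads in the normal libraries, at 145, 158 and 25.5 in the model and at 43.0, 14.5 and 21.8 with SAR. Model library c was far below the other model libraries, as it was in the sum of the cholangiocyte markers. Cx3cl1 rose by 3.42 in the model (SE 0.71, adjusted p = 0.00937) and by 4.26 without model library c. It did not pass with SAR (−1.75, SE 0.68, adjusted p = 0.0823), but fell without model library c (−2.60, adjusted p = 0.00112). The 5 cholangiocyte markers all rose in the model, against 20.2% of all genes tested. With SAR 4 of them fell, against 16.2%, and the part of these markers in the Cx3cl1 result was not tested. For Cx3cr1 the levels were 11.5, 15.1 and 8.83 in the normal libraries, 314, 274 and 140 in the model and 100, 41.2 and 28.2 with SAR, with no overlap between the groups. Cx3cr1 rose by 4.21 (SE 0.37, adjusted p = 7.67e-04) and fell by 2.19 with SAR (SE 0.46, adjusted p = 0.01).

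The receptors of inflammatory monocytes moved together. Ccr2 stood at 38.4, 38.9 and 71.7 normalised reads in the normal libraries, at 498, 401 and 467 in the model and at 93.1, 77.5 and 145 with SAR. These groups did not overlap either. It rose by 3.23 in the model (SE 0.26, adjusted p = 7.34e-04) and fell by 2.13 with SAR (SE 0.24, adjusted p = 9.91e-04). Its level with SAR was not told apart from normal (log2 fold change 1.08, SE 0.34, adjusted p = 0.0989), but was higher without normal library c (1.37, adjusted p = 0.0293). Ccr1, a receptor of CCL3, CCL6 and CCL9, stood at 4.80, 11.9 and 48.6 in the normal libraries, at 118, 107 and 133 in the model and at 21.5, 27.9 and 32.1 with SAR. Normal library c exceeded every SAR library. Ccr1 rose by 2.97 (SE 0.70, adjusted p = 0.0147) and fell by 2.09 with SAR (SE 0.26, adjusted p = 0.00136). Its rise was 2.26 without normal library a, 3.81 without normal library c, and lost its call without model library a (adjusted p = 0.0562).

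Monocyte and macrophage markers moved beside these genes. Their sum over 10 genes ran from 4693 to 5278 normalised reads in the normal libraries, from 11289 to 12780 in the model and from 3963 to 5510 with SAR, and no marker was at 0 reads in a group. Of the 10, 6 rose and 1 fell in the model, against 20.2% and 19% of all genes tested. With SAR against the model 8 fell, against 16.2%. The one that fell in the model, Clec4f, marks resident Kupffer cells, and its log2 fold change with SAR against the model was 0.02 (adjusted p = 0.94). In SAR livers against normal 3 of the 10 rose, Cd68, Itgax and Lyz2, and Clec4f fell, against 1.73% and 1.8% of all genes tested. The similar sums of these 2 groups therefore hide markers that differed. In whole liver RNA, fewer cells of a type and less RNA per cell cannot be told apart, and the part of the markers in the chemokine results was not tested.

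**Figure D3:**
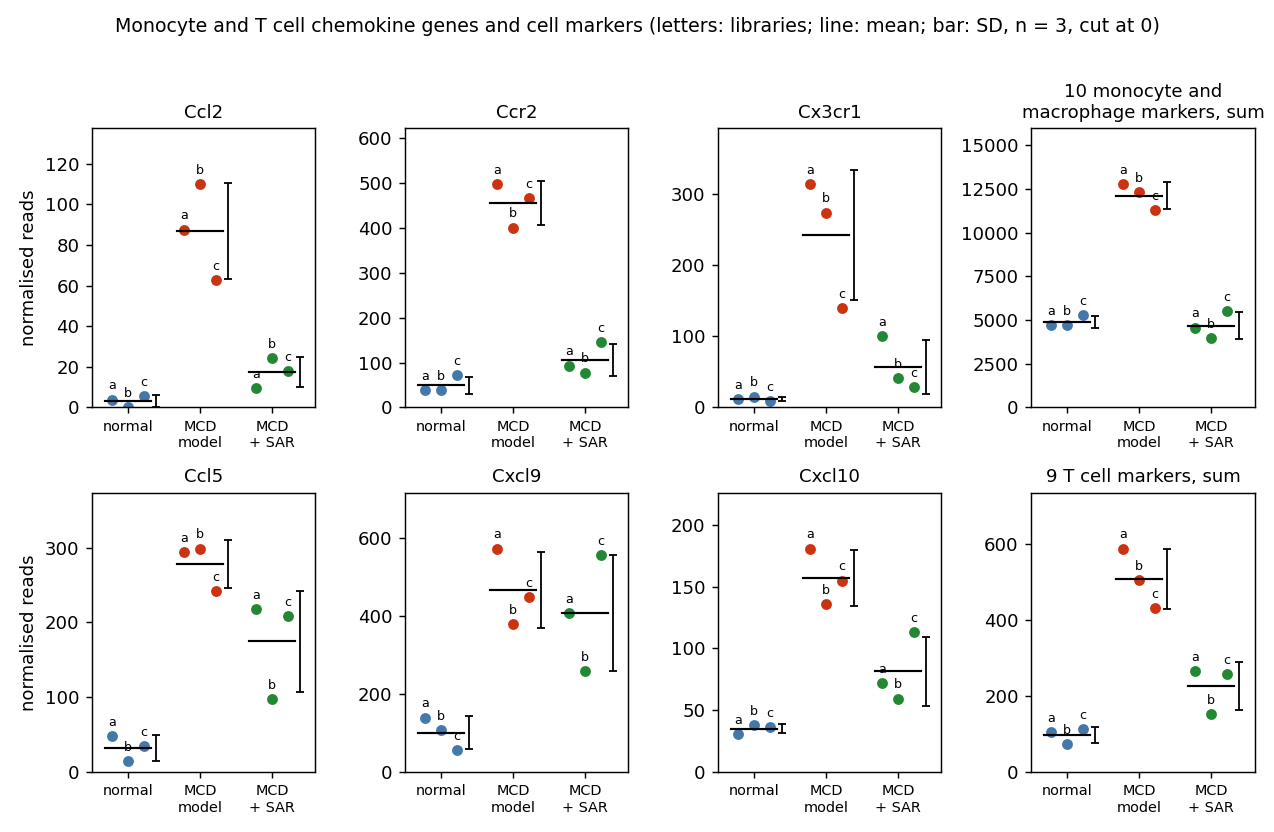
Normalised reads (vertical axes, from 0) of Ccl2, Ccr2, Cx3cr1, Ccl5, Cxcl9 and Cxcl10 and the sums of 10 monocyte and macrophage markers and of 9 T cell markers in each library, with group means and SD (n = 3). Ccr2 with SAR lies at 77.5 to 145, under the model's 401 to 498, whereas Cxcl9 with SAR lies at 259 to 556 and overlaps the model's 379 to 573.

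Ligands of CXCR2 attract neutrophils, and their promoters are classic targets of NF-kappaB. Of the 56 members, 43 had a promoter in the RefSeq table of GRCm38.p6, a later build than the mm9 of the deposited data. The NF-kappaB motif, GGG and TTTCC parted by any 2 bases, searched on both strands in the 250 bases before the start, was found in 6 of these 43 genes (14%), against 1.65% of 27025 genes with a promoter there. The 6 were Cxcl1, Cxcl2, Cxcl3, Ccl9, Ccl20 and Ccr3. The last 120 bases before the start of the first 3 are shown because these linked genes share the motif, with matches on either strand in capitals. They lie at chr5:90891125-90891244, chr5:90903779-90903898 and chr5:90785981-90786100, all on the plus strand. A match is a run of letters and not evidence of binding.
Cxcl1: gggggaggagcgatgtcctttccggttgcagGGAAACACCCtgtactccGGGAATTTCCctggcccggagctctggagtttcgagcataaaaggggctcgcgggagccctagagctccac
Cxcl2: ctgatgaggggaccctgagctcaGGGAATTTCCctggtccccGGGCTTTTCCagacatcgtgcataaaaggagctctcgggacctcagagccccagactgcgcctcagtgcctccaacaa
Cxcl3: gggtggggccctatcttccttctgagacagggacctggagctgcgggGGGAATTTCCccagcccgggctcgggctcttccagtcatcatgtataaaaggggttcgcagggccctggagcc

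Cxcl1 stood at 49.0, 44.3 and 687 normalised reads in normal libraries a, b and c, at 897, 778 and 538 in the model and at 485, 160 and 984 with SAR. Normal library c was as high as a model library. The log2 fold change of 2.64 in the model did not pass (SE 0.95, adjusted p = 0.0582), and neither did −0.75 with SAR against the model (SE 0.54, adjusted p = 0.319). Without normal library c, Cxcl1 rose by 3.93 in the model (adjusted p = 1.41e-04) and by 3.16 with SAR against normal (adjusted p = 0.0149).

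Cxcl2 was nearly silent in the normal livers and stayed high with SAR. Its levels were 0.961, 1.08 and 1.10 normalised reads in the normal libraries, or 1 read each, 43.8, 69.3 and 19.9 in the model, and 20.3, 20.6 and 65.5 with SAR. The model and SAR libraries overlapped fully. In the model Cxcl2 rose by 4.37 (SE 0.64, adjusted p = 0.00309), and the ratio of summed reads was 42.8 (exact 95% interval 14.4 to 209). Its log2 fold change with SAR against the model was −0.35 (SE 0.58, adjusted p = 0.666). It was 1 of the 3 members that rose with SAR against normal (3.84, SE 0.71, adjusted p = 0.034), but failed the test when normal library a (adjusted p = 0.103), normal b (0.0994), SAR a (0.0959) or SAR b (0.0979) was left out, and was too low to test without SAR c. Cxcl3 had 0 reads in the normal group, 6 in the model and 2 with SAR, too few to test.

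Cxcl5, an epithelial ligand of CXCR2, was nearly absent with SAR. It stood at 0, 3.24 and 0 normalised reads in the normal libraries, at 41.6, 40.4 and 15.1 in the model and at 1.19, 1.21 and 0 with SAR. The SAR libraries were as empty as the normal ones, with 2 reads in all against 130 in the model. Cxcl5 rose by 4.35 in the model (SE 0.86, adjusted p = 0.00811) and fell by 4.18 with SAR (SE 0.77, adjusted p = 0.00595). The model to SAR ratio of summed reads was 40.1 (10.9 to 334). Without normal library b the rise was 5.08. The rise lost its call without model library b (adjusted p = 0.0526), and the fall without model library a (0.0504) or model b (0.0571).

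The receptor gene Cxcr2 stood at 7.69, 24.9 and 121 normalised reads in the normal libraries, at 118, 107 and 66.1 in the model and at 13.1, 18.2 and 32.1 with SAR. Normal library c was above every other library. The value in the model did not pass (log2 fold change 1.66, SE 0.85, adjusted p = 0.152) and rose by 2.68 without that library (adjusted p = 0.00752). With SAR, Cxcr2 fell by 2.18 against the model (SE 0.39, adjusted p = 0.00551), though not in a fit of all 9 libraries (adjusted p = 0.0577). The neutrophil markers summed to 1121 to 2794 normalised reads in the model and 213 to 544 with SAR, beside the normal sums of 99.9, 217 and 7890. Of 9 tested markers 6 fell with SAR, against 16.2% of all genes tested, and 1, Csf3r, rose in the model, against 20.2%. None was at 0 reads in a group, but Mpo, a granule enzyme of neutrophil precursors, was at 0, 0 and 266 in the normal libraries. The part of these cells in the Cxcr2 and Cxcl1 values was not tested.

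**Figure D4:**
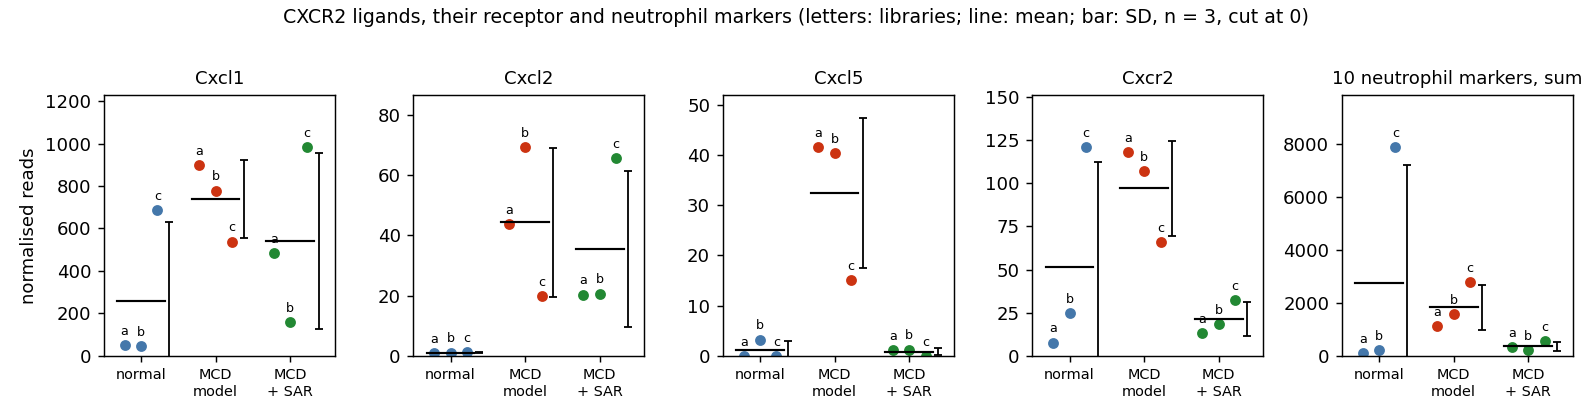
Normalised reads (vertical axes, from 0) of 3 CXCR2 ligands, Cxcr2 and the sum of 10 neutrophil markers in each library, with group means and SD (n = 3). Normal library c stands at 687 for Cxcl1, 121 for Cxcr2 and 7890 for the markers, and the SAR libraries lie at 0 to 1.21 for Cxcl5 but at 20.3 to 65.5 for Cxcl2.

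The set for effector T cells and NK cells also holds Xcr1, the receptor of the T and NK cell product XCL1, although dendritic cells carry it. All 8 tested members of the set rose in the model, and 5 of them fell with SAR, against 20.2% and 16.2% of all genes tested. Cxcl9, Cxcl10 and Ccl5 are induced by interferon in liver cells and macrophages, and CXCR3 is the receptor of the first 2. For Cxcl9 the levels were 139, 106 and 56.3 normalised reads in the normal libraries, 573, 379 and 449 in the model and 408, 259 and 556 with SAR. Model and SAR libraries overlapped, and both lay above the normal ones. Cxcl9 rose by 2.28 in the model (SE 0.33, adjusted p = 0.00302) and its log2 fold change with SAR against the model was −0.23 (SE 0.27, adjusted p = 0.554). Against the normal group it rose with SAR by 2.03 (SE 0.37, adjusted p = 0.0338). For Ccl5 the levels were 48.0, 14.0 and 34.2 in the normal libraries, 294, 299 and 242 in the model and 218, 96.9 and 209 with SAR, with no overlap between the groups. Ccl5 rose by 3.24 in the model (SE 0.42, adjusted p = 0.00211), did not pass with SAR against the model (−0.73, SE 0.30, adjusted p = 0.0923) and rose with SAR against normal (2.47, SE 0.48, adjusted p = 0.0376). That last call was lost for Cxcl9 and for Ccl5 without each library but normal c, at adjusted p-values from 0.0706 to 0.117 for Cxcl9 and from 0.079 to 0.134 for Ccl5, and without a trended variance (0.0826 for Cxcl9 and 0.0843 for Ccl5).

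Cxcl10 encodes the other of these CXCR3 ligands. It stood at 30.7, 37.8 and 36.4 normalised reads in the normal libraries, at 181, 136 and 155 in the model and at 71.6, 59.4 and 113 with SAR, so that the SAR libraries fell between the others with no overlap. Cxcl10 rose by 2.14 (SE 0.22, adjusted p = 0.00124) and fell by 0.97 with SAR (SE 0.26, adjusted p = 0.0259). Its fall was lost without model library a (adjusted p = 0.0999), model b (0.0601), SAR a (0.0616) or SAR b (0.0914). Whether the SAR effect on Cxcl10 differs from that on Cxcl9 was not tested. The interferon response motif, TTTC repeated after any 2 bases, searched on both strands in the 250 bases before the start, was found in 3 of the 43 members with a promoter (6.98%), Cxcl10, Cxcl14 and Ccl19, and in 3.46% of all genes. The Cxcl10 window, at chr5:92348890-92349139 on the minus strand of GRCm38.p6, is shown because this gene is a standard readout of interferon, with the match in capitals.
Cxcl10: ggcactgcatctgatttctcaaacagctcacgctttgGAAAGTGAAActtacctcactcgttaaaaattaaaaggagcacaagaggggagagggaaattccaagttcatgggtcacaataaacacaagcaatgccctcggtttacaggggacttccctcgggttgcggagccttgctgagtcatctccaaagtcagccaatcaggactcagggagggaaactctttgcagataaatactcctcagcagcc

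Cxcl16 encodes a membrane-bound chemokine of macrophages and endothelium, and CXCR6 is its receptor on resident T and NK cells of the liver. Cxcl16 stood at 63.4, 113 and 68.4 normalised reads in the normal libraries, at 422, 305 and 215 in the model and at 138, 64.2 and 83.4 with SAR. Normal and SAR libraries overlapped, and the model lay above them. Cxcl16 rose by 1.93 (SE 0.31, adjusted p = 0.00406) and fell by 1.71 with SAR (SE 0.32, adjusted p = 0.00655). Cxcr6 stood at 22.1, 13.0 and 16.6 in the normal libraries, at 57.4, 52.6 and 60.5 in the model and at 16.7, 26.6 and 19.3 with SAR, the same order. It rose by 1.70 (SE 0.32, adjusted p = 0.00714) and fell by 1.41 (SE 0.31, adjusted p = 0.0122), which failed the test when model library a (0.0536) or b (0.0511) was left out. Cxcl16 overlaps Zmynd15 on the opposite strand in the mouse annotation, and Zmynd15 had log2 fold changes of 2.22 in the model and −1.29 with SAR. Cxcr6 overlaps Fyco1 likewise, which had −0.81 and 0.55. No strand setting is stated for the counting, so reads of such pairs cannot be told apart. Of the members described by library, 8 overlap a protein-coding gene there: Ccl2, Ccl21a, Ccl25, Ccl27a, Cx3cr1, Cxcl10, Cxcl16 and Cxcr6. Cx3cr1 overlaps genes on both strands.

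Cxcr3 stood at 12.5, 9.72 and 11 normalised reads in the normal libraries, at 51.0, 33.5 and 47.8 in the model and at 23.9, 14.5 and 21.8 with SAR. The 3 groups did not overlap. Cxcr3 rose by 1.89 (SE 0.36, adjusted p = 0.00719) and fell by 1.09 with SAR (SE 0.36, adjusted p = 0.0479). By the authors' deposited adjusted p of 0.13 Cxcr3 did not pass, and the fall was lost without any 1 of the 6 libraries, at adjusted p-values from 0.0535 to 0.172. Ccl22, a dendritic cell product that draws CCR4-bearing T helper 2 and regulatory T cells, stood at 14.4, 1.08 and 0 in the normal libraries, at 53.1, 28.2 and 29.5 in the model and at 8.36, 4.85 and 12.8 with SAR. It rose by 3.59 (SE 1.02, adjusted p = 0.0274) and fell by 1.98 (SE 0.50, adjusted p = 0.019). Its rise was 4.77 without normal library a and 2.72 without normal c, and lost its call without normal b (0.0727), model a (0.109) or model b (0.0781). The fall of Ccl22 was lost without model a (0.103), model b (0.0594) or SAR b (0.059), and in a fit of all 9 libraries (0.119). Xcr1, the receptor of cross-presenting dendritic cells, stood at 9.61, 5.40 and 5.52 in the normal libraries, at 36.6, 26.7 and 19.9 in the model and at 13.1, 13.3 and 19.3 with SAR. Xcr1 rose by 1.89 (SE 0.48, adjusted p = 0.0186), which was lost without model library a (0.0878) or model b (0.0769), and did not pass with SAR (−0.79, SE 0.42, adjusted p = 0.18). Its ligand gene Xcl1 had 0 reads in the normal group, 18 in the model and 11 with SAR, at least 4.35-fold higher in the model against a floor of 3 reads over the normal group.

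Lymphocyte and dendritic cell markers were also measured. The sum of 9 T cell markers was 73.5 to 113 normalised reads in the normal libraries, 431 to 589 in the model and 153 to 266 with SAR. Of the 9, 8 rose in the model and 5 fell with SAR, while 20.2% of all genes tested rose and 16.2% fell. The 8 NK cell markers summed to 59.4 to 87.4, 215 to 254 and 67.8 to 163, with 3 of 6 tested rising and 1 falling, and 1 of the 8 was at 0 reads in the normal group. Sums of 6 dendritic cell markers, of which Xcr1 is one, were 79.5 to 158, 251 to 445 and 167 to 173, with 5 of 6 rising in the model and 1, Siglech, falling with SAR. For NK cells and for dendritic cells, the 1 of 6 tested markers that fell was near the 16.2% of all genes tested. The part of these cells in the chemokine values was not tested.

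Among genes of lymph node homing, Ccr7, the receptor that takes mature dendritic cells and naive T cells to lymph nodes, rose in the model and fell with SAR. It stood at 4.80, 2.16 and 4.41 normalised reads in the normal libraries, at 58.9, 66.3 and 44.6 in the model and at 29.8, 13.3 and 25.7 with SAR, with no overlap between the groups. Ccr7 rose by 3.65 (SE 0.46, adjusted p = 0.00201) and fell by 1.31 with SAR (SE 0.38, adjusted p = 0.0318). The fall was lost without model library a (adjusted p = 0.106), model b (0.128), SAR b (0.0884) or SAR c (0.0588). Ccl21a, which encodes a ligand of CCR7 and has near-identical copies in the mouse genome that make its reads uncertain, stood at 42.3, 44.3 and 2.21 in the normal libraries, at 146, 123 and 43.8 in the model and at 32.2, 3.63 and 25.7 with SAR. Library c was low in the normal and model groups and library b in the SAR group. Ccl21a did not pass in the model (2.36, SE 1.03, adjusted p = 0.103) and fell by 2.53 with SAR (SE 0.75, adjusted p = 0.0342). Without SAR library b the value was −1.64 and did not pass (adjusted p = 0.0722), nor did it without model a (0.122), model b (0.114) or SAR c (0.0519), without a trended variance (0.069) or in a fit of all 9 libraries (0.0929). The other CCR7 ligand gene, Ccl19, had group means of 5.03, 16.3 and 6.01 and passed no test.

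Chemokines of homeostasis and retention included the only members that fell in the model. Cxcl12 encodes the ligand that holds CXCR4-bearing cells in tissue. It stood at 3562, 3613 and 3433 normalised reads in the normal libraries, at 1968, 1291 and 2919 in the model and at 2534, 3220 and 3703 with SAR. Every model library was below every normal one, while the model and SAR libraries overlapped. Cxcl12 fell by 0.86 in the model (SE 0.29, adjusted p = 0.0482), close to the threshold. It did not pass without a trended variance (0.0721) or with genes down to a mean of 1 tested (0.0502), and it failed the test with normal a (0.122), normal b (0.115), normal c (0.0714), model a (0.116) or model b (0.161) left out. With SAR against the model its log2 fold change of 0.69 did not pass (SE 0.29, adjusted p = 0.103), and it rose by 0.98 without model library c (adjusted p = 0.00669). Its receptor gene Cxcr4 stood at 34.6, 36.7 and 60.7 in the normal libraries, at 256, 307 and 105 in the model and at 82.4, 84.8 and 73.2 with SAR. The groups did not overlap. Cxcr4 rose by 2.23 (SE 0.42, adjusted p = 0.00716) and fell by 1.31 (SE 0.36, adjusted p = 0.0272), the opposite direction in the model to its ligand. By the authors' deposited adjusted p of 0.0885 the fall of Cxcr4 did not pass, nor did it without a trended variance (0.0577). It was lost without model library a (0.101), model b (0.104), SAR a (0.0561), SAR b (0.0764) or SAR c (0.0825), and against normal Cxcr4 passed with SAR only without normal library c (1.14, adjusted p = 0.0325).

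Cxcl13, the B cell attractant of lymphoid follicles, had the most negative fold change of the tested members in the model and stayed as low with SAR. It stood at 60.5, 57.3 and 330 normalised reads in the normal libraries, at 5.74, 3.81 and 23.9 in the model and at 9.55, 26.6 and 5.13 with SAR. Normal library c was the highest, and the model and SAR libraries overlapped. Cxcl13 fell by 3.52 in the model (SE 0.84, adjusted p = 0.0152), but did not pass by the authors' deposited adjusted p of 0.17, and its log2 fold change with SAR against the model was 0.40 (SE 0.83, adjusted p = 0.739). The value was −2.70 without normal library c and −4.24 without model library c, and it failed the test without model a (0.0612) or model b (0.0566). With SAR against normal it did not pass (−3.11, SE 0.77, adjusted p = 0.0639) and fell without normal library c (−2.29, adjusted p = 0.0475). The 6 B and plasma cell markers did not share this pattern: they summed to 140, 153 and 745 in the normal libraries, 835 to 1635 in the model and 255 to 590 with SAR. Jchain, at 90.3, 97.2 and 661 in the normal libraries and 914, 726 and 1509 in the model, made up most of these sums. Of 5 markers tested, Jchain alone rose in the model, near the 20.2% of all genes tested.

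Cxcl14, a chemokine of epithelium and stroma that acts on monocytes and dendritic cells, had the most negative fold change but Cxcl5 of the members with SAR against the model. Its levels were 4.80, 14.0 and 54.1 normalised reads in the normal libraries, 312, 219 and 151 in the model and 27.5, 24.2 and 25.7 with SAR. The SAR libraries were close together and inside the normal range. Cxcl14 rose by 3.71 (SE 0.74, adjusted p = 0.00844) and fell by 3.02 with SAR (SE 0.29, adjusted p = 5.38e-04). The rise was 2.94 without normal library a and 4.57 without normal library c. Stellate cell and fibroblast markers, a sum over 7 genes, were at 989 to 3847 in the normal libraries, 9735 to 20701 in the model and 3290 to 5782 with SAR. Of the 7, 5 rose in the model and 6 fell with SAR, against 20.2% and 16.2% of all genes tested. The part of these markers in the Cxcl14 and Cxcl12 values was not tested.

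Among mucosal and skin chemokines, Ccl25 was the only member to rise with SAR against the model. Its product draws CCR9-bearing lymphocytes to gut and thymus. It stood at 48.0, 43.2 and 24.3 normalised reads in the normal libraries, at 38.8, 27.4 and 36.6 in the model and at 97.9, 63.0 and 70.6 with SAR. Every SAR library was above all 6 others. Its log2 fold change was −0.12 in the model (SE 0.36, adjusted p = 0.808), 1.15 with SAR against the model (SE 0.29, adjusted p = 0.018) and 1.01 with SAR against normal, which did not pass (SE 0.33, adjusted p = 0.106). The rise was lost without model library b (adjusted p = 0.0728) or SAR library a (0.0534). Ccl25 overlaps Elavl1 on the opposite strand, and Elavl1 did not pass in either comparison (log2 fold changes −0.20 and 0.13). Ccr9, the receptor of CCL25, had group means of 9.28, 18.3 and 7.68 and passed no test. Ccl27a, a skin chemokine gene with near-identical copies and an overlap with Il11ra1, stood at 73.0, 30.3 and 36.4 in the normal libraries, at 101, 89.1 and 46.2 in the model and at 152, 89.6 and 97.5 with SAR, and passed no test (with SAR against normal 1.32, SE 0.37, adjusted p = 0.0772).

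The eosinophil attractant gene Ccl24 stood at 13.5, 19.4 and 19.9 normalised reads in the normal libraries, at 25.8, 41.9 and 49.4 in the model and at 16.7, 18.2 and 14.1 with SAR. The model libraries lay above the others, but the tests did not pass (in the model 1.08, SE 0.39, adjusted p = 0.0572, and with SAR −1.15, SE 0.38, adjusted p = 0.0504). Without a trended variance Ccl24 passed in each (adjusted p = 0.0341 and 0.0278), but by the authors' deposited adjusted p-values of 0.122 and 0.119 it passed in neither. The 4 eosinophil markers summed to at most 8.83 in the normal libraries, 39.6 in the model and 18.2 with SAR. Epx, the eosinophil peroxidase gene, was at 0 reads in the normal and model groups. Siglecf, the only marker abundant enough to test, rose by 3.79 in the model (SE 0.99, adjusted p = 0.0208). It did not pass with SAR against the model (−1.73, SE 0.63, adjusted p = 0.0669). Ackr2, the scavenger of inflammatory CC chemokines, stood at 86.5, 77.8 and 33.1 in the normal libraries, at 47.4, 33.5 and 22.3 in the model and at 44.2, 24.2 and 32.1 with SAR. Its log2 fold change was −0.86 in the model (SE 0.45, adjusted p = 0.158) and 0.00 with SAR against the model (SE 0.39, adjusted p = 0.999). Without normal library c, Ackr2 fell in the model (−1.29, adjusted p = 0.0292) and with SAR against normal (−1.3, adjusted p = 0.0425). Group means of the CXCL12 scavenger Ackr3 were 9.20, 16.1 and 6.65, those of Ackr4, which binds CCL19, CCL21 and CCL25, were 17.7, 13.9 and 15, and neither passed a test.

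The remaining members were near the limit of detection. Ccl7, a CCR2 ligand, was tested with SAR against the model alone and did not pass (−1.16, SE 0.70, adjusted p = 0.233). Over 3 libraries it had 1 normal read and 58 model reads, a ratio of 42.1 (exact 95% interval 7.26 to 1689). On the common scale 19 members stayed under a mean of 10 in every group and were not among those described by library. In the whole normal group 6 members had no read, Ccl1, Ccl20, Ccl27b, Ccr8, Cxcl3 and Xcl1. In the model 1 had none, Ccl27b, and with SAR 4 had none, Ccl1, Ccl11, Ccr4 and Cxcl17. Ccl8, another CCR2 ligand, had 5, 25 and 1 reads in the 3 groups, a model to SAR ratio of 15.4 (2.52 to 633). Ccl11, the eosinophil chemokine eotaxin, had 1 read in the normal group, 14 in the model, all in library a, and none with SAR. Ccr10 had 5, 22 and 2 reads, a model to SAR ratio of 6.78 (1.67 to 59.5). Of Ccr3, the eosinophil receptor gene, there was 1 normal read and there were 14 model reads, a ratio of 10.2 (1.54 to 429). Cxcr1, a neutrophil receptor gene, had 1 normal read, 8 model reads and 9 with SAR, of which 8 were in SAR library c. Its SAR to normal ratio was 10.6 (1.47 to 464). Ccr8, a receptor of regulatory T cells, was at least 2.9-fold higher in the model than a floor of 3 reads over the normal group, and Ccr4 at least 2.26-fold lower with SAR than in the model by the same floor. These intervals and floors cover counting error and not the spread between samples.

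Several members lie side by side in the RefSeq annotation of GRCm38.p6, and neighbours did not always share a pattern. Ccl5, Ccl9, Ccl6, Ccl3 and Ccl4 follow one another. All but Ccl6 rose in the model, and with SAR Ccl6 and Ccl9 fell and the other 3 did not pass. Cx3cl1 lies between Ccl22 and Ccl17, and Ccl17, which shares the receptor CCR4 with Ccl22, had 15, 10 and 5 reads in the 3 groups while Ccl22 rose and fell. Ccr2, which rose in the model, lies beside Ccr3, the eosinophil receptor, which had 1, 14 and 7 reads. Cxcr6, Xcr1 and Ccr1 are neighbours too, and all 3 rose in the model.

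The signalling machinery behind the receptors moved in the same direction. Of 33 listed genes of chemokine signalling outside the members, 22 rose and 3 fell in the model, against 20.2% and 19% of all genes tested. With SAR against the model, 25 of 32 tested fell and 1 rose, against 16.2% and 13.2% of all genes tested. None of 33 passed with SAR against normal in limma, where 1.73% of all genes tested rose and 1.8% fell. Of the 33, 2 were higher and 1 lower at an unadjusted p under 0.05, against 12.7% and 13.5% of all genes tested. Pik3r5, a regulatory subunit of the phosphoinositide kinase that G proteins activate in leukocytes, rose by 2.94 (SE 0.42, adjusted p = 0.00286) and fell by 2.03 with SAR (SE 0.21, adjusted p = 7.3e-04). Ccrl2, which binds chemerin without signalling, rose by 2.33 and fell by 1.24. Rgs1, which shortens the signal of chemokine receptors, rose by 1.70 and fell by 1.69. Dpp4, the peptidase that clips and inactivates CXCL10 and CXCL12, had the opposite course. It stood at 1473, 1472 and 1230 normalised reads in the normal libraries, at 468, 507 and 932 in the model and at 1097, 1423 and 1309 with SAR. Dpp4 fell by 1.19 in the model (SE 0.26, adjusted p = 0.0113) and rose by 1.08 with SAR (SE 0.26, adjusted p = 0.0148). Gnai3 and Stat3 also fell in the model (−0.57 and −0.83).

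Upstream of the ligands, 19 of 24 listed cytokines, receptors and transcription factors that induce chemokine genes were tested. In the model 11 rose and 1 fell, against 20.2% and 19% of all genes tested. With SAR against the model 9 fell and 1 rose, against 16.2% and 13.2%. Relb, an NF-kappaB subunit, rose by 3.12 (SE 0.34, adjusted p = 0.00143) and fell by 1.96 with SAR (SE 0.36, adjusted p = 0.00572). Irf1, a transcription factor induced by interferon gamma, rose by 1.39 in the model (SE 0.24, adjusted p = 0.00517) and did not pass with SAR (−0.52, SE 0.26, adjusted p = 0.159). Il1r1, the interleukin 1 receptor gene, fell by 1.41 in the model (SE 0.43, adjusted p = 0.0354) and rose by 1.66 with SAR (SE 0.19, adjusted p = 0.00109). Il6 and Ifng had almost no reads, with normalised levels between 0 and 3.98 in every library. None of 18 passed with SAR against normal in limma, where 1.73% of all genes tested rose and 1.8% fell. Of the 18, 3 were higher and 2 lower at an unadjusted p under 0.05, against 12.7% and 13.5% of all genes tested.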

How the data were processed

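Liver RNA of 9 mouse samples was sequenced, 3 each in a normal, a model and a SAR group; groups were taken from the treatment labels. Trizol was used to isolate the RNA and a NEBNext Ultra kit to build the libraries, per the labels' protocols. The submitters' processing notes name the build mm9. Aligner, counter, annotation and strand setting were not given in the sources used here. The authors deposited 2 tables, normal with model and model with SAR. Per the file headers, these give a signal per gene and group (the mean of reads divided by size factors), their fold, a ratio, its log2, and p-values and adjusted p-values of a DESeq test.

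A deposited mean is a sum of 3 whole read numbers, each times a library constant. Means up to 30000 were solved for these numbers at 15 significant digits. All 9 libraries were recovered for 16356 of 16521 genes, and all 56 members are among them. For the model group, 15973 of 15973 genes gave identical reads from both tables, and 0 of 1000 slightly altered means had a solution. Recomputed size factors differed from the authors' by at most 0.472%. The recovered libraries carry no replicate number, so a, b and c are ordered by size factor alone. Recovered reads per library are a lower bound of depth.

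Reads divided by size factors were tested as log2(value + 1) with limma 3.58.1 in R 4.3.3, with trended variance, two-sided, for genes with a mean of at least 10 over the 6 libraries, adjusted after Benjamini and Hochberg over all genes tested (threshold 0.05). The fit was tested on simulated data. Ratios of low reads have exact 95% intervals. Members were described by library if they passed in a comparison or were among the 30 highest in group mean, and lists by counts. The values of 1 member are not reported here, though the counts include it. The members and all lists were chosen with earlier results of these data known. Alternatives were another pseudocount, filter, variance model, scaling, a joint fit, the authors' p-values and leaving out libraries. Means above 30000 were left out of the fits.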

Additional observations from a re-analysis of the deposited data

How the results depend on the processing

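The count of members that passed in the model against normal was 22 to 27 higher over the alternatives other than leaving out 1 library, and 18 to 25 when 1 library was left out. The 2 lower members of that comparison were 1 with a mean of at least 1, 1 without a trended variance and 1 by the authors' deposited adjusted p-values (where 23 were higher), and 0 to 2 with 1 library left out. For SAR against the model, 16 to 21 were lower over the same alternatives (16 by the authors' deposited adjusted p-values) and 9 to 18 with 1 library left out; the 1 higher member became 2 without the least correlated library of each group and 0 to 2 with 1 library left out. For SAR against normal, the 3 higher members became 1 without a trended variance, 7 with all 9 libraries in 1 fit and 6 without the least correlated library of each group, and 0 to 7 with 1 library left out; the 0 lower became 1 without the least correlated library of each group and 0 to 2 with 1 library left out. The cause of these changes was not tested. No fold change of a named member that had passed changed sign under any alternative run. No paired analysis was possible because the recovered libraries carry no replicate number of the labels. Groups of 3 and the low reads of 19 members limit what could be detected.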

Other observations

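Platelet chemokine genes and chemerin genes, whose symbols fall outside the rule for members, gave a mixed picture. Pf4, platelet factor 4, stood at 15.4, 11.9 and 38.6 normalised reads in the normal libraries, at 73.2, 74.6 and 58.9 in the model and at 29.8, 8.48 and 37.2 with SAR. It rose by 1.78 in the model (SE 0.45, adjusted p = 0.0181) and fell by 1.62 with SAR (SE 0.50, adjusted p = 0.0394). Ppbp, the other platelet chemokine gene, did not pass in the model (−0.81, SE 1.27, adjusted p = 0.635). Cmklr1, the chemerin receptor of macrophages, did not pass in the model (0.60, SE 0.25, adjusted p = 0.0868) and fell by 1.72 with SAR (SE 0.48, adjusted p = 0.028), while Rarres2, the gene of chemerin itself, passed in no comparison. Gpr182, an atypical chemokine receptor of endothelium, passed in no comparison either, and its libraries ran from 65.4 to 348. The 6 markers of sinusoidal endothelium summed to 1962 to 3984 in the normal libraries, 2446 to 2740 in the model and 1170 to 2299 with SAR.

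Other motifs were searched in the same way in the promoters of 43 members, with no test of the shares. The STAT motif, TTC and GAA parted by any 3 bases, was present in 6.98% of the members against 8.13% of all genes. The letters of the TATA box, TATAAA, were present in 30.2% against 14.3%. Matches counted on either strand and at any distance, such as 6 bases before the start in Cx3cl1 and 195 in Cxcl9, so a match need not be a TATA box.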
